A study of Saccharomyces cerevisiae with 6 samples.

Results

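The 8 thiol peroxidase genes of budding yeast and SRX1, the gene of sulfiredoxin, were followed through 6 RNA sequencing libraries. The 9 genes were chosen by name (TSA1, TSA2, DOT5, AHP1, PRX1, GPX1, GPX2, HYR1 and SRX1, where HYR1 is the gene that the labels call GPX3) from 7126 features in each table. All 9 were measured with the status OK in every library and all 9 passed the minimum mean level. The study, whose title concerns aneuploidy in cells short of thiol peroxidases, profiled polyadenylated RNA of cells grown in YPD, a rich glucose medium. It compared 3 strains, each with 2 libraries, and all are labelled as S288c and mating type a.

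The wild type, named Wt-M11 and described as having a single chromosome XI, is labelled with can1-100 and [phi+], with the auxotrophic alleles trp1-1, ade2-1, his3-11,15 and leu2-3, and with ura3 and GAL. It also carries HIS3 and KanMX6 inserted on chromosome XI between YKL006C-A and YKL006W. D8A and D8B share 1 genotype label. Their background is met15, ura3, leu2 and his3. In them TSA1 and GPX3 are labelled as replaced by KAN, GPX1 and PRX1 by URA3, TSA2 by LEU2, AHP1 by HIS3, DOT5 by MET15, GPX2 by HYG and SRX1 by NAT. The labels do not say how D8A and D8B differ, nor whether the pair of libraries of a strain had separate cultures behind them. The p-values therefore speak of the spread among these libraries alone, which may be technical. Comparisons with wild type are between strains whose labelled background alleles and markers also differ, although all are labelled as S288c. Effects of the deletions cannot be told apart from those of the other strain differences. The 7 a-specific genes examined (such as STE2, the alpha-factor receptor) were above 0 in every library and summed to 7023 to 11175 FPKM. Most of that sum came from MFA1 and MFA2, short features of 111 and 117 bp. The 4 alpha-specific genes summed to 47.1 to 66.0 FPKM, with none at 0. The a-specific ASG7 had only 3.31 to 9.75 FPKM, below the alpha-specific MF(ALPHA)2 at 19.2 to 31.9. Every other a-specific gene had at least 33.7 FPKM. FPKM, the unit of the tables, is a number of sequenced fragments divided by feature length and by the depth of the library.

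Thiol peroxidases reduce hydrogen peroxide and organic peroxides with a reactive cysteine, which is mostly turned over by thioredoxin. The peroxiredoxins of yeast are TSA1 and TSA2 in the cytosol, AHP1, which prefers alkyl hydroperoxides, DOT5 in the nucleus and PRX1 in mitochondria. GPX1, GPX2 and HYR1 belong to the glutathione peroxidase family, and HYR1 also passes the peroxide signal to Yap1, the transcription factor of the oxidative stress response. SRX1 encodes the enzyme that reduces overoxidised peroxiredoxins back to their active form.

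TSA1 and TSA2 are the closest relatives of the family, and their sequences bear on whether reads of one can be counted for the other. Their coding sequences are both 591 bp long, align without gaps and are 78.5% identical. The stretch around the longest run of identical bases, 14 bp, covers coding positions 79 to 122 of both genes (R64, TSA1 on chrXIII:220216-220259, plus strand, and TSA2 on chrIV:1365541-1365584, minus strand). It is shown here 5′ to 3′ with the 9 bases that differ in capitals.
TSA1: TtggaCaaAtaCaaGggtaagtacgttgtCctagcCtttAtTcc
TSA2: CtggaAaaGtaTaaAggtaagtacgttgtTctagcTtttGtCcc
GPX2 and HYR1, at 71.2% identity, held the longest identical run of the 36 pairs of members, 23 bp. Of the 556 windows of 36 bases in the coding sequence of TSA1, 0 recurred anywhere else in the reference genome on either strand, and the same count of 0 held for each of the other members. The search counted exact matches only, and between members the 0 was already fixed by shared runs of at most 23 bp. It therefore cannot settle whether reads aligned with mismatches were counted for another member. The sources used here do not give the read length.

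In wild type the family was dominated by a pair of cytosolic peroxiredoxins. TSA1 (YML028W, chromosome XIII, 220138 to 220728) held 2029 and 1723 FPKM, and AHP1 (YLR109W, chromosome XII, 368781 to 369311) held 1629 and 1467 FPKM. Together these genes made up 83.6% ± 0.681 (SD, n = 2) of the summed FPKM of the 8 peroxidases. The 5 peroxiredoxins made up 90.4% ± 0.215 and the 3 genes of the glutathione peroxidase family 9.56% ± 0.215 (SD, n = 2). Summed, the 8 genes reached 4092 ± 362 FPKM (SD, n = 2), or 0.339% ± 0.00803 of the FPKM of the 6249 features of 300 bp or more.

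HYR1 (YIR037W, chromosome IX, 423128 to 423619), the peroxide sensor, came next with 324 and 308 FPKM. It lay 4.90-fold below AHP1 by the wild-type means and supplied most of the glutathione peroxidase family. DOT5 (YIL010W, chromosome IX, 334882 to 335529), the nuclear enzyme, held 134 FPKM in both libraries. PRX1 (YBL064C, chromosome II, 100371 to 101156), the mitochondrial enzyme, held 114 and 106 FPKM.

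The lower end of the order was made of SRX1 and 3 weakly expressed peroxidases. SRX1 (YKL086W, chromosome XI, 278281 to 278664) held 52.8 and 76.8 FPKM. GPX2 (YBR244W, chromosome II, 707528 to 708016) held 54.4 and 36.7 FPKM. These genes overlapped, so their places in the order do not differ beyond the spread between libraries. TSA2 (YDR453C, chromosome IV, 1365072 to 1365662), the near copy of TSA1, held 33.3 and 33.4 FPKM, 56.2-fold below TSA1. GPX1 (YKL026C, chromosome XI, 389380 to 389883) was the lowest, at 30.6 and 27.3 FPKM. All other neighbours in the order were separated in both wild-type libraries, AHP1 from TSA1 by a ratio of 1.21 of the means, DOT5 from PRX1 by 1.22, and TSA2 from GPX1 by 1.15. With only 2 libraries this order has no test. The levels depend on the scale: the deposited intervals of the 9 genes lay below their FPKM in wild type, and the interval midpoints gave a wild-type mean of 1248 for TSA1 (1876 by FPKM) and of 33.4 for SRX1 (64.8), the shortest member at 384 bp. The order of the 9 genes was the same by midpoints.

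**Figure D1:**
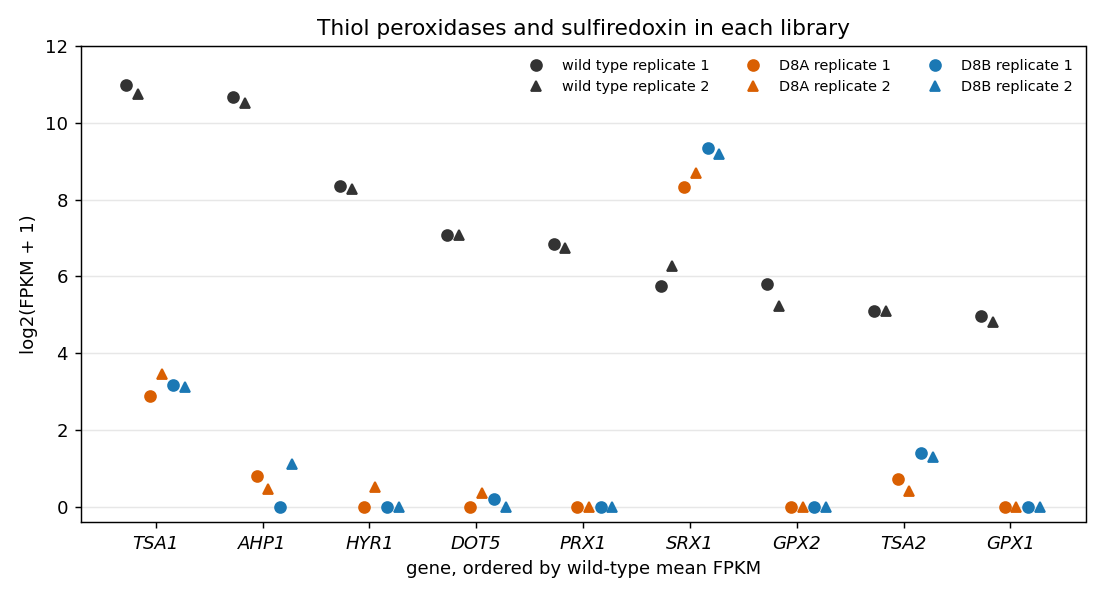
Level of each gene as log2(FPKM + 1) on the y axis, with genes on the x axis ordered by their wild-type mean. Each point is 1 library, with colour for the strain and shape for the replicate. The 8 peroxidase genes are near 0 in the D8A and D8B libraries except TSA1, at 6.42 to 9.94 FPKM, and SRX1 is higher in all 4 of these libraries than in wild type.

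Comparing wild type with the strains labelled null asked what was left of the 9 genes in libraries labelled as lacking all of them. The 8 peroxidases fell and SRX1 rose. TSA1, at 2029 and 1723 FPKM in wild type, was left with 6.42 and 9.94 FPKM in the D8A pair and with 8.03 and 7.77 in the D8B pair. On the log2(FPKM + 1) scale it fell by 7.71 ± 0.205 (SE; limma adjusted p = 3.47e-06). AHP1 kept 0.760 and 0.379 FPKM in the D8A pair, and D8B had 0 and 1.15 (limma adjusted p = 3.47e-06). HYR1 had 0 and 0.431 FPKM in D8A and stood at 0 in both D8B libraries (limma adjusted p = 3.47e-06).

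DOT5 had 0 and 0.279 FPKM in the D8A pair, and D8B had 0.159 and 0 (limma adjusted p = 9.16e-06). PRX1, GPX2 and GPX1 stood at 0 in each of the null libraries (limma adjusted p = 9.16e-06, 8.75e-05 and 0.000147). A fold change against 0 has no meaning for these 3 genes. Their p rests on a spread pooled over the strains and on the prior, and the null libraries at 0 add no spread. TSA2 kept 0.642 and 0.321 FPKM in the D8A pair, while D8B had 1.64 and 1.46. It fell by 4.15 ± 0.256 (SE; limma adjusted p = 0.000120). For none of the 8 peroxidases did any null library reach a wild-type library. Over all 6925 features tested, 4.91% were called lower and 1.55% higher, against 8 lower and 1 higher of the 9 members. The deletion labels call for the 8 falls, so they check the labels and are no separate result.

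Few other features fell as far. Of 6124 features with a wild-type mean of at least 10 FPKM, 11 (0.18%) were at 5% or less of that mean in each of the 4 null libraries. Of these 11, 8 were the peroxidases, which are labelled as deleted. TSA2 was just inside this limit, with its highest null library at 4.92% of wild type. The other 3 were YLR302C, a 363 bp feature (24.0 and 50.8 FPKM in wild type), YNL067W-A of 147 bp (12.2 and 11.0) and YOR314W-A of 111 bp (38.0 and 0), and all 3 stood at 0 in the null libraries. YOR314W-A did not pass limma (adjusted p = 0.275), whereas YLR302C and YNL067W-A did (adjusted p = 0.000333 and 0.00126).

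**Figure D2:**
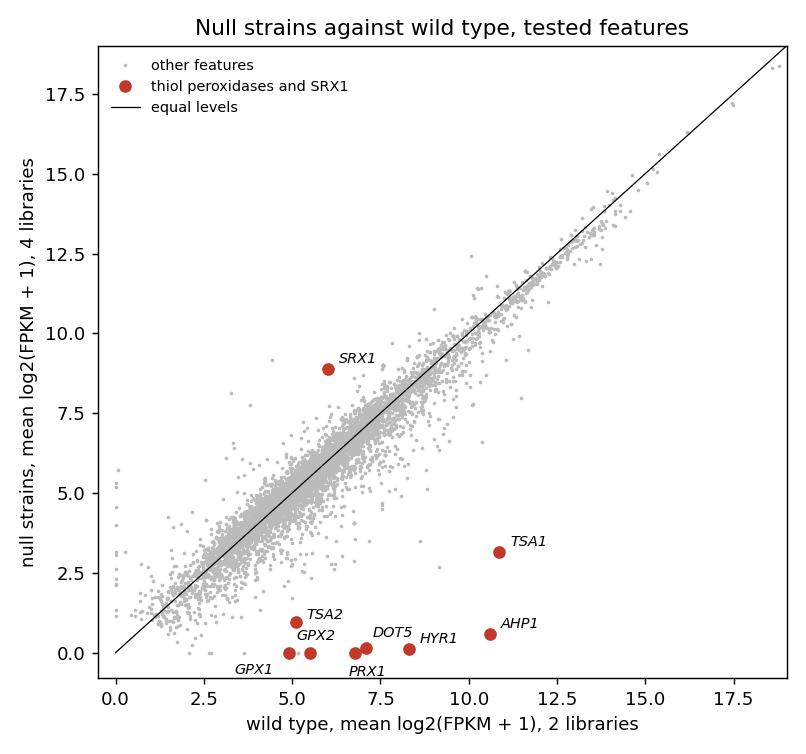
Mean log2(FPKM + 1) of the 4 null libraries (y axis, each strain weighted equally) against that of the 2 wild-type libraries (x axis) for the 6925 tested features. Red points are the 8 thiol peroxidases and SRX1, grey points are other features and the line marks equal levels. The peroxidases lie along the bottom of the plot, TSA1 highest among them, and SRX1 lies above the line.

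What remained was mostly TSA1. The low FPKM values stepped in whole multiples of 1 amount per library and feature length, so that each residual value could be read as a number of fragments (the sequenced pieces of RNA). Of the 32 residual values (8 genes in 4 libraries), 18 were 0 and 7 stood for 1 fragment. The other 7 were 4 values of TSA1, 2 of TSA2 and 1 of AHP1. A single fragment was worth 0.428 to 0.875 FPKM in D8A replicate 1, the shallowest library, and 0.122 to 0.248 in D8B replicate 1, the deepest, depending on the length of the gene.

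TSA1 had 10 and 31 fragments in D8A and 44 and 32 in D8B, against about 7168 and 6731 in wild type. It supplied 117 of the 143 fragments of the 8 genes over the null libraries. Its level was 0.342% and 0.530% of the wild-type mean in D8A and 0.428% and 0.414% in D8B. Per 1000000 mapped fragments this was 2.49 (exact Poisson 95% interval 1.20 to 4.58) and 3.87 (2.63 to 5.49) in D8A. In D8B it was 3.12 (2.27 to 4.19) and 3.02 (2.07 to 4.27), and all 4 intervals overlapped. These intervals cover counting error only. A small number of cells with the transcript and little RNA in every cell cannot be told apart in such libraries. TSA1 exceeded 9.11% to 12.4% of the features of 300 bp or more in the null libraries and 97.6% to 97.7% in wild type.

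TSA2 had 1 and 1 fragments in D8A and 9 and 6 in D8B, against about 118 and 131 in wild type. As a share of wild type this was 1.44% in D8A and 4.64% in D8B by the strain means, above the share that any other peroxidase kept. AHP1, which is nearly as abundant as TSA1 in wild type, kept only 0.0370% of its wild-type mean over the null libraries, with 1, 1, 0 and 4 fragments. DOT5 had 0, 1, 1 and 0 fragments and HYR1 0, 1, 0 and 0, in the order D8A replicates 1 and 2, then D8B replicates 1 and 2. Summed over the 8 genes, the null libraries held 0.191% and 0.277% (D8A) and 0.240% and 0.254% (D8B) of the wild-type sum. Where in the genes these fragments lay was not tested, since the tables give 1 value per gene.

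**Figure D3:**
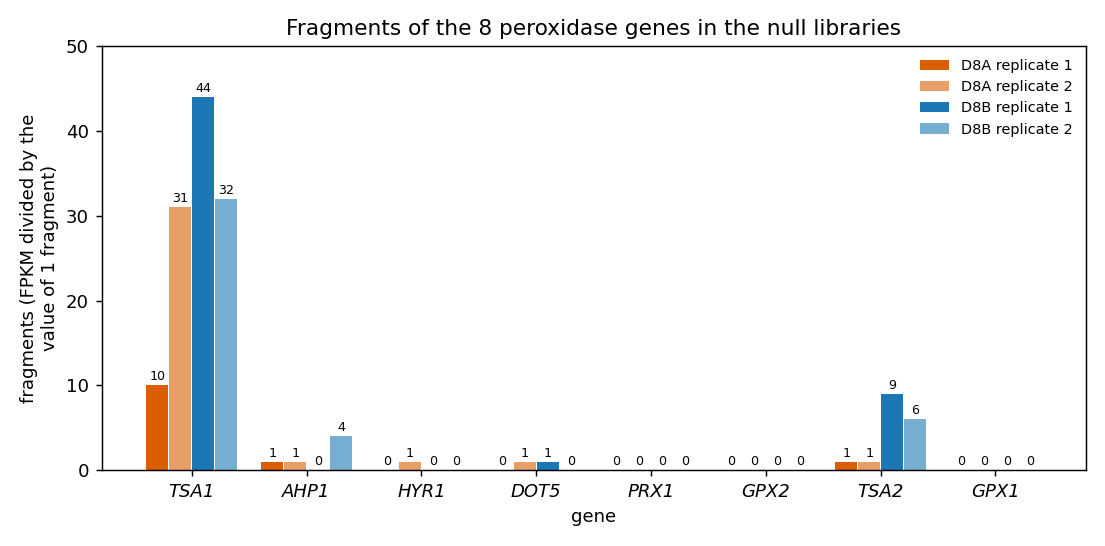
Fragments of each of the 8 peroxidase genes (x axis, ordered by wild-type level) in the 4 null libraries, as FPKM divided by the value of 1 fragment for that gene and library (y axis), with the number above each bar. TSA1 has 10 to 44 fragments, TSA2 1 to 9, and no other gene more than 4. The libraries differ in estimated depth, from 4010000 to 14100000 mapped fragments.

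The 2 null strains were then compared with each other, which asks whether the residual levels differed. Of the 9 members, 0 passed limma for D8B against D8A, where 0.332% of all features passed (0.116% lower, 0.217% higher), and TSA2 and SRX1 had an unadjusted p under 0.05, against 9.18% of all features. TSA2 was higher in D8B by 0.79 ± 0.30 (SE; limma adjusted p = 0.475), with an unadjusted 95% interval of 0.11 to 1.48. Both D8B libraries lay above both D8A libraries. The exact Poisson intervals per 1000000 fragments were 0.292 to 1.21 and 0.208 to 1.23 in D8B and up to 1.39 and 0.695 in D8A. These intervals overlapped, but with 1 fragment in each D8A library the overlap is no test of a difference. For TSA1 the difference was -0.02 ± 0.24 (SE; limma adjusted p = 0.992), with an unadjusted 95% interval from -0.57 to 0.53. For PRX1, GPX1 and GPX2 there was nothing to compare.

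SRX1 went against its label in all 4 libraries labelled D8A and D8B, where NAT is said to have replaced it. The D8A libraries had 319 and 415 FPKM and the D8B libraries 654 and 584. Wild type had 52.8 and 76.8, and the groups did not overlap. By the strain means this was 5.67-fold of wild type in D8A and 9.56-fold in D8B, and the log2 rise over both strains was 2.88 ± 0.23 (SE; limma adjusted p = 0.000571, 95% interval 2.34 to 3.42). In fragments this was 230 and 603 for D8A, 1668 and 1120 for D8B and about 87 and 140 for wild type. The mean SRX1 level of the null libraries was 50.1 times that of the 8 peroxidases summed. Every direction given here between strains rests on labels that 8 of 9 deleted genes match and SRX1 does not.

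The rise moved SRX1 up the order of all genes. In wild type it ranked 2298 and 1733 among 6249 features of 300 bp or more, in D8A 387 and 367, and in D8B 273 and 270. As a share of the summed level of all 8 peroxidases in wild type, SRX1 reached 7.78% and 10.1% in the D8A libraries and 16.0% and 14.3% in those of D8B. D8B exceeded D8A by 0.76 ± 0.27 (SE) on the log2 scale, with both D8B libraries above both D8A libraries, but the difference did not pass (limma adjusted p = 0.443, unadjusted 95% interval 0.14 to 1.39).

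SRX1 and GPX1 both lie on chromosome XI, the chromosome that is singled out in the wild-type label. The median log2 difference from wild type of 330 chromosome XI features of 300 bp or more, minus that of 5838 features on other chromosomes, was 0.02 in both D8A libraries and 0.01 and 0.04 in D8B. SRX1 itself differed from the wild-type mean by 2.31 and 2.69 in D8A and by 3.34 and 3.18 in D8B. Neither neighbour of SRX1 passed the test. CYT2 (YKL087C), the cytochrome c1 haem lyase, whose annotated end lies 417 bp away, had a log2 difference of 0.18 ± 0.23 (SE; limma adjusted p = 0.690). MDH1 (YKL085W), the mitochondrial malate dehydrogenase, 458 bp away on the other side, had -0.03 ± 0.23 (SE; limma adjusted p = 0.953).

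**Figure D4:**
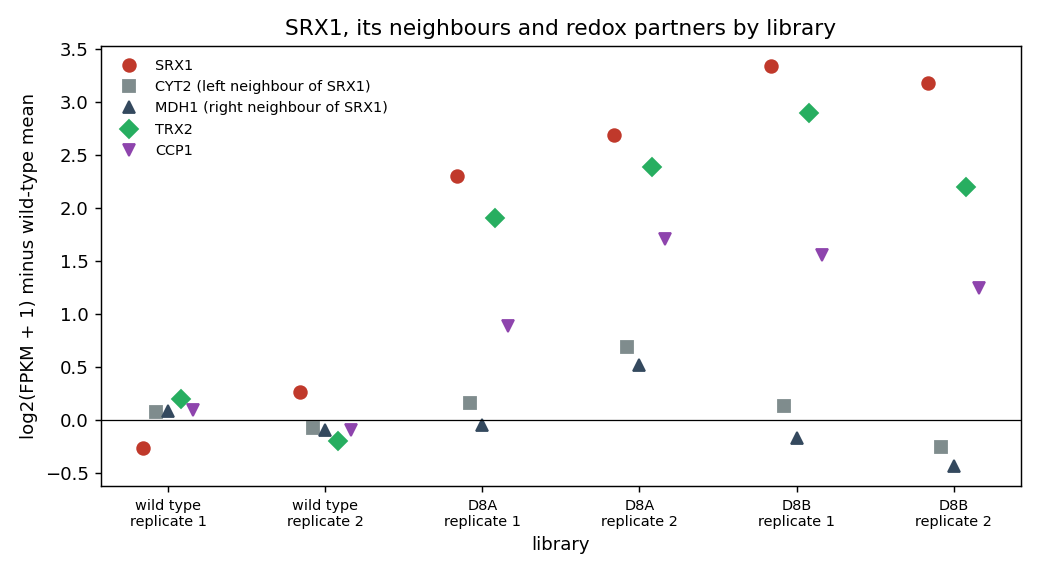
Level of SRX1, of its neighbours CYT2 and MDH1 on chromosome XI, and of the redox genes TRX2 and CCP1 in each library (x axis), as log2(FPKM + 1) minus the mean of the wild-type libraries (y axis). Each point is 1 gene in 1 library. SRX1 lies at 2.31 to 3.34 in the null libraries, TRX2 below it and CCP1 below TRX2, while each neighbour has null libraries on both sides of the wild-type mean.

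The genes nearest to SRX1 in pattern were found by the root mean square difference of their deviations from their own wild-type mean over the 6 libraries. The search covered 5461 features of 300 bp or more with a mean of at least 10 FPKM over the 6 libraries. The nearest were YDR274C (0.43 on the log2 scale), GAS2 (0.49), IZH4 (0.54), TRX2 (0.55) and YMR122C (0.59). YDR274C, GAS2, IZH4 and YMR122C had wild-type means of 7.91, 4.83, 9.25 and 2.14 FPKM. They passed this filter only through the null libraries, where they were higher. All 5 were called higher in the null strains with limma (adjusted p from 0.000571 to 0.00347), which the choice by likeness to SRX1 fixes and which is therefore no separate result. TRX2 (YGR209C), the cytosolic thioredoxin induced by oxidative stress and an electron donor of the peroxiredoxins, was the most abundant. Its wild-type libraries had 1220 and 932 FPKM, those of D8A 3997 and 5594, and those of D8B 7943 and 4913. The null libraries all lay above wild type.

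The promoters of SRX1 and TRX2 are shown because both are textbook Yap1 targets. TRX2 was picked for that reason from genes chosen by likeness to SRX1, so their shared rise is no separate result. Whether Yap1 acted on either gene in these strains was not tested. The windows hold 250 bases before and 50 after the start of the coding sequence in R64, SRX1 at chrXI:278031-278330 on the plus strand and TRX2 at chrVII:913178-913477 on the minus strand. They run 5′ to 3′ with matches to the Yap1 motifs TTACTAA and TGACTAA, on either strand, in capitals.
SRX1: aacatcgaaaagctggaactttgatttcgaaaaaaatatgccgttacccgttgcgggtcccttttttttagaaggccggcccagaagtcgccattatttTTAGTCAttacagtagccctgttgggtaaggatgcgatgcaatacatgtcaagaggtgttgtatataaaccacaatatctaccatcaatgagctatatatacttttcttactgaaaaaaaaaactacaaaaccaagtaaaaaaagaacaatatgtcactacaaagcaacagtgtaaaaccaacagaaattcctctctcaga
TRX2: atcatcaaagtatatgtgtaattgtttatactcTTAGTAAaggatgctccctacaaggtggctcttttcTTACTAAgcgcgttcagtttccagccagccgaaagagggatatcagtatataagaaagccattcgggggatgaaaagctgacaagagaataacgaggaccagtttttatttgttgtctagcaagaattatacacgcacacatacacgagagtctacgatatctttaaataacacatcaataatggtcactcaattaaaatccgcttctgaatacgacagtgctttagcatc
SRX1 held 1 match (TTAGTCA, the reverse complement of TGACTAA) and TRX2 held 2, TTAGTAA (the reverse complement of TTACTAA) and TTACTAA itself. Of 6001 promoter windows of the same length, 10.9% held at least 1 match, 7.45% to TTACTAA and 3.62% to TGACTAA, and the motifs share their last letters ACTAA. Of the 9 members, SRX1 and GPX1 held a match, both to TGACTAA. Of the 5 genes nearest to SRX1 in pattern, TRX2 alone held one. A match is a run of letters and was not tested for binding.

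Of the 21 redox partners, 3 rose and 0 fell in the null strains, against 1.55% and 4.91% of all features. The share that rose was thus above that of all features. Since the list was chosen with earlier results of these data known, this excess is no separate result. The median log2 difference was 0.16, against 0.01 over all features tested. In the thioredoxin system only TRX2 of 5 genes rose, by 2.35 ± 0.29 (SE; limma adjusted p = 0.00347, and 0.0718 without wild-type replicate 2). TRX1, the other cytosolic thioredoxin, had 873 to 2257 FPKM in the null libraries, overlapping the 1409 and 988 of wild type (limma adjusted p = 0.713). TRR1, the thioredoxin reductase that serves both, had 236 to 424 FPKM in the null libraries, overlapping the 293 and 269 of wild type (limma adjusted p = 0.728).

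Among 6 other peroxide and superoxide enzymes CCP1 and SOD1 rose. CCP1, the cytochrome c peroxidase of mitochondria, had 341 and 606 FPKM in D8A, 544 and 438 in D8B and 197 and 173 in wild type. It rose by 1.35 ± 0.27 (SE; limma adjusted p = 0.0260). SOD1, the copper and zinc superoxide dismutase, rose by 1.30 ± 0.28 (SE; limma adjusted p = 0.0357). Neither call held throughout. That of CCP1 was lost in 5 of 11 alternatives, among them those without either wild-type library, without D8B replicate 1 and without the filter on low values (highest limma adjusted p = 0.287). That of SOD1 was lost in 7 of 11, among them those without any 1 library other than D8B replicate 2 and without the filter (highest limma adjusted p = 0.395). The catalases CTT1 and CTA1, which also remove hydrogen peroxide, had null means of 6.35 and 9.25 FPKM and wild-type means of 7.64 and 8.36 (limma adjusted p = 0.591 and 0.833).

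Of 5 genes of the glutathione system and 3 of peroxide sensing, 0 passed limma. GSH1, the first enzyme of glutathione synthesis, had a null mean of 97.0 FPKM and a wild-type mean of 61.2 (limma adjusted p = 0.0685), and YAP1 itself had 90.5 and 60.1 (limma adjusted p = 0.0988). Both were above wild type in 4 of 4 null libraries. The methionine sulfoxide reductases MXR1 and MXR2, which also draw on thioredoxin, had null means of 114 and 94.2 FPKM and wild-type means of 145 and 140 (limma adjusted p = 0.359 and 0.174). For D8B against D8A, 0 of the 21 genes passed.

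The features next to the 9 loci were examined because each deletion label places a marker cassette between them. No feature of the tables overlapped a member. Of the 18 flanking features, 1 rose and 1 fell, with a median log2 difference of 0.11, against 0.01 over all features, of which 6.45% were called in either direction. YLR108C, 656 bp from AHP1, had 31.3 and 28.8 FPKM in wild type, 128 and 137 in the D8A libraries and 108 and 83.0 in those of D8B. It rose by 1.87 ± 0.18 (SE; limma adjusted p = 0.00115). Its null libraries lay above both wild-type libraries. CCW12, a cell wall protein on the other side of AHP1, had a log2 difference of -0.21 ± 0.26 (SE; limma adjusted p = 0.684).

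TIR3, a cell wall mannoprotein 345 bp from DOT5, had 30.3 and 46.3 FPKM in wild type, and D8A had 13.9 and 16.8 and D8B 18.8 and 25.9. It fell by 0.99 ± 0.23 (SE; limma adjusted p = 0.0466). This call was lost when any 1 library was left out, with a pseudocount of 0.1 and without the filter (highest limma adjusted p = 0.46). GTT1, a glutathione transferase 189 bp from HYR1, had 36.2 and 57.0 FPKM in D8A, 104 and 61.0 in D8B and 120 and 131 in wild type, and did not pass (limma adjusted p = 0.0668). On either side of TSA1, USA1 and YOX1 had log2 differences of 0.09 ± 0.17 and -0.05 ± 0.23 (SE; limma adjusted p = 0.802 and 0.919). For D8B against D8A, 0 of the 18 flanking features passed. The largest difference was that of YBL065W, 63 bp from PRX1, at -1.51 ± 0.24 (SE; limma adjusted p = 0.0648). It had 21.0 and 17.5 FPKM in D8A, 6.97 and 5.30 in D8B and 6.16 and 6.96 in wild type. YBL065W and GTT1 each gained this call in 1 of 11 alternatives.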

How the data were processed

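One table per library was used, with FPKM and the bounds of an interval for each feature, per the file headers. The deposited FPKM are the authors' values. The submitters' processing notes name Bowtie2 2.1.0, TopHat2 2.0.9, Cufflinks 2.1.1 and build R64, without role or order, and do not say whether strand was used. The 9 members had the coordinates of the R64 annotation.

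Of 7126 features, the 7051 with status OK in every library were kept, and 6925 with a mean of at least 1 FPKM were tested. A linear model with a mean per strain was fitted to log2(FPKM + 1) of the 6 libraries (limma 3.58.1, R 4.3.3, variance trend, 3 residual and 4.7 prior degrees of freedom). Fold changes of low genes are understated on this scale. Adjusted p are two-sided Benjamini-Hochberg values over all features tested, with a threshold of 0.05. The fit was also run on simulated data with a common spread for all features. That setting does not cover genes at 0 or spreads that differ between features.

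Low FPKM were read as whole multiples of the value of 1 fragment. For each library the depth and the mean and spread of fragment length were searched over a limited range. Those that made the largest share of low values whole were taken, so that share is no separate check of them. With fragments averaging 204 to 205 bp, 78.4% to 86.1% of 208 to 449 low values per library were within 0.05 of a whole number, and all residual values of the peroxidases within 0.0750. High values are not resolved to 1 fragment. The estimated depths were 9110000 and 10070000 mapped fragments for wild type, 4010000 and 8020000 for D8A and 14100000 and 10590000 for D8B. No count model was used.

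Genes named are the members, 21 redox partners, the features flanking or overlapping a member, those at 5% or less of a wild-type mean of at least 10 FPKM in every null library, and the 5 nearest to SRX1 in pattern. The a-specific and alpha-specific genes served as a label check. Members and lists were chosen with earlier results of these data known. Alternatives were another pseudocount, no filter, centred libraries, longer features only, a replicate block, interval midpoints and leaving out each library.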

Additional observations from a re-analysis of the deposited data

How the results depend on the processing

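All 9 members kept their direction and their call against wild type in each of 11 alternatives (highest limma adjusted p = 0.00848), and none passed for D8B against D8A in any (lowest adjusted p = 0.0762). SRX1 rose by 2.61 to 3.14. For PRX1, GPX1 and GPX2 a fit without 1 wild-type library had no spread of their own, so those calls rested on the prior. The number of features changed against wild type, 447, was 270 without the filter on low values, 948 among features of 300 bp or more, and from 114 (without wild-type replicate 2) to 671 (without D8A replicate 2) when 1 library was left out, with 201 without wild-type replicate 1. For D8B against D8A the number, 23, was 11 without the filter, 197 among features of 300 bp or more, 9 with the replicate block, and 10 (without D8B replicate 2) to 104 (without D8A replicate 2) when 1 library was left out, with 42 without D8A replicate 1. Among features of 300 bp or more TSA1 and SRX1 kept their log2 differences of -7.71 and 2.88, and only the p-values changed. Their limma adjusted p became 1.23e-101 and 6.92e-28, from 3.47e-06 and 0.000571. P-values this small cannot rest on the 3 residual degrees of freedom of a feature. They and the counts of 948 and 197 are therefore not read as stronger support. The cause of the shifts in number was not tested. Replicate numbers are shared only as numbers: the differences between replicates 1 and 2 correlated across features with r = -0.307 between wild type and D8A, 0.476 between wild type and D8B and -0.456 between D8A and D8B. With the block, the 9 members stayed called, and CCP1 and SOD1 lost their call (limma adjusted p = 0.0885 and 0.106).

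The family's share of wild-type FPKM, 0.339%, was 0.106% over features of all lengths, where short features enter the sum, and 0.324% from interval midpoints, which also gave the same order of the 9 members but let GPX2 overlap TSA2. The residual of the peroxidases, 0.241% of the wild-type sum, was 0.313% from interval midpoints. Of 1008 values of the other named genes under alternatives, 971 kept their side of the threshold, 21 lost and 16 gained a call, and 0 reversed. Depth limits the residual values most in D8A replicate 1, where a level under 1 fragment could not be seen.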
